A study of Mus musculus with 17 samples.

Results

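The 10 genes described here, Hspa5, Hsp90b1, Calr, Pdia4, Dnajb9, Sdf2l1, Herpud1, Xbp1, Creld2 and Manf, encode chaperones of the endoplasmic reticulum (ER) and other products that the unfolded protein response controls. They were taken by gene name from 36271 genes listed in at least 1 of 4 deposited count tables, and all 10 were listed in each of the 4. The ER is where secreted and membrane proteins fold. When unfolded proteins build up there, the sensors IRE1 (gene Ern1), PERK (Eif2ak3) and ATF6 (Atf6) signal to the nucleus. IRE1 splices Xbp1 mRNA into a form that encodes an active transcription factor, ATF6 is cut by Golgi proteases into another, and PERK slows translation while favouring that of ATF4. The chaperone genes are textbook targets of ATF6 and XBP1, while ATF4 and its target CHOP (gene Ddit3) mark the PERK branch and the integrated stress response it shares with other kinases. Neurons, which make large amounts of membrane and secreted protein, use this system for folding in the cell body and dendrites.

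The series holds 17 RNA-seq libraries from C57BL/6 mice, the strain given for every sample, and its title names astrocytic ApoE, neuronal cholesterol metabolism and histone acetylation in memory. ApoE is the apolipoprotein with which astrocytes send lipid to other cells. In 14 libraries of primary neurons cultured from brain, 3 experiments each had a control of its own and 2 libraries per group: ADM treatment, spelled only so in the labels; ApoE particle treatment in a first experiment (set 1); and, in a second (set 2), ApoE particle and ApoE reconstituted particle treatment against 1 shared control. In 3 hippocampus libraries, 1 per group, mice carried a control shRNA without FC, a control shRNA with FC, or an shRNA against ApoE with FC, an abbreviation left unexplained there. No dose, duration, age or sex is given, nor the cells in which the shRNA acted. Whether replicate libraries stem from separate cultures is unstated too, so p-values measure only the spread between these libraries, which may be technical.

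Library totals ran from 14624082 to 19142353 counts. Levels are given as CPM, a gene's counts per 1000000 counts of its library. Summed over 8 pan-neuronal markers, the 14 neuron libraries reached 4952 to 7176 CPM. Astrocyte markers were present as well, at 613 to 4269 CPM summed over 8 genes. ADM replicate 2 stood apart with 1176 CPM of vessel and fibroblast markers against 20.4 to 72.0 CPM in the other 3 libraries of that experiment, so the ADM results are given with and without it. Apoe, the shRNA target, had 1697 CPM in the control shRNA library without FC, 2797 CPM in the control shRNA library with FC and 1384 CPM in the ApoE shRNA library with FC. In bulk RNA, fewer cells of a type and less RNA per cell cannot be told apart.

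Promoters of these genes are shown first because the response is read through short elements there. The RefSeq table of promoters (GRCm38.p6, 250 bases before to 50 bases after the annotated start) held 9 of the 10 genes, and Manf was the exception. Each window was searched on both strands for the ER stress element ERSE (CCAAT, then 9 bases of any kind, then CCACG), for ERSE-II (ATTGG, 1 base of any kind, then CCACG) and for the XBP1-type core TGACGTG. ERSE letters were found in 4 of the 9 windows, those of Hspa5, Hsp90b1, Calr and Creld2, and in 39 of all 32851 windows (0.119%). ERSE-II letters were found in that of Herpud1 and in 12 of all windows (0.0365%). The core was found in that of Hspa5, which thus held both kinds of letters at separate places, and in 661 of all windows (2.01%). The sequences read 5′ to 3′ on each gene's own strand, with the fixed letters of the element in capitals, and CGTGG followed by ATTGG is the element on the opposite strand.
Hspa5: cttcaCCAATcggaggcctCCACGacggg
Hsp90b1, distal: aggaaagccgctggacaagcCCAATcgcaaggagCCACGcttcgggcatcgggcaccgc
Hsp90b1, proximal: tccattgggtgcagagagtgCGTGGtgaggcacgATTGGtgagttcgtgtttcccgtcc
Calr: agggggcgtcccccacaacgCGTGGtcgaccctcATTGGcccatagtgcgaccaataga
Creld2: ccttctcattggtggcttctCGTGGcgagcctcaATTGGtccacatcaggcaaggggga
Herpud1: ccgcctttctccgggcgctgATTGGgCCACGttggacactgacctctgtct
These stretches lie at chr2:34772020-34772048 for Hspa5 (plus strand), chr10:86705618-86705676 and chr10:86705513-86705571 for Hsp90b1 (minus strand), chr8:84847055-84847113 for Calr (minus strand), chr15:88819500-88819558 for Creld2 (plus strand) and chr8:94386357-94386407 for Herpud1 (plus strand). All are upstream of the RefSeq start. That of Hspa5 is kept to 29 bases because an exon of the GENCODE M21 annotation covers it. ERSE of Hspa5 began 65 bases before the start, those of Hsp90b1 212 and 107 bases before it, that of Calr 162 and that of Creld2 126 bases before it, and ERSE-II of Herpud1 began 52 bases before the start. A match of letters is a description and was not tested for binding. Its absence from the windows of Pdia4, Dnajb9, Sdf2l1 and Xbp1 says only that these letters are not there. For Pdia4, Herpud1 and Xbp1 the sequence at the RefSeq start was not found near the start of a GENCODE M21 transcript. The window of Pdia4 (chr6:47813463-47813762) lies wholly upstream of the counted gene, so bases at that gene's start were not searched.

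**Figure D1:**
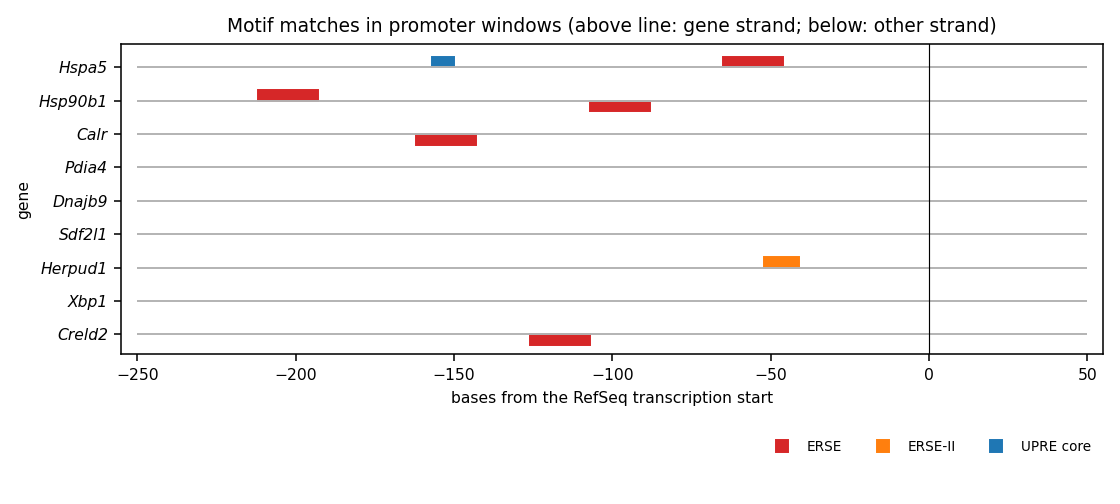
Matches of ERSE, ERSE-II and the TGACGTG core in the 9 RefSeq promoter windows, by distance in bases from the annotated start (0); boxes above a line are on the gene's strand and boxes below it on the opposite strand. Hspa5, Hsp90b1, Calr and Creld2 hold ERSE, Hsp90b1 in 2 places, and Herpud1 holds ERSE-II.

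All 10 genes are protein coding, and each had the same position in the 4 tables (mm10): Hspa5 at chr2:34771970-34777547 (plus strand), Hsp90b1 at chr10:86690209-86705509 (minus strand), Calr at chr8:84841850-84846934 (minus strand), Pdia4 at chr6:47796141-47813430 (minus strand), Dnajb9 at chr12:44205559-44210326 (minus strand), Sdf2l1 at chr16:17130138-17132383 (minus strand), Herpud1 at chr8:94386438-94395377 (plus strand), Xbp1 at chr11:5520659-5525893 (plus strand), Creld2 at chr15:88819646-88826681 (plus strand) and Manf at chr9:106838312-106891979 (minus strand). The files give 1 count per gene, so the spliced and unspliced forms of Xbp1 cannot be separated. The strand setting of the counting is not given in the sources used here, and exons of Manf share 146 bases with Dcaf1 and 166 with 4930524O07Rik on the other strand, while exons of Hsp90b1 share 415 bases with the pseudogene 1810014B01Rik. A pseudogene named for Calr, Calr-ps, is annotated too. Exons of Hsp90b1 also share 84 bases with Gm15344 and 133 with Gm25745 on the same strand. How reads from these places were counted, or whether they were left out, is not given.

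In untreated neurons Calr, a calcium-binding chaperone of glycoproteins, and Hspa5, the Hsp70 chaperone BiP that also holds the sensors inactive, were the most abundant of the 10 per length. On the scale of CPM per kilobase of GENCODE M21 exon sequence, the 6 control libraries had a median of 143 for Calr (106 to 166), 74.4 for Hspa5 (58.9 to 85.1) and 38.8 for Hsp90b1 (37.0 to 52.7), the Hsp90 chaperone GRP94. Pdia4, a disulfide isomerase, had a median of 28.2, Xbp1 23.1, Herpud1 15.6, the Hsp40 co-chaperone Dnajb9 13.8, Manf 11.6, Creld2 11.5 and Sdf2l1 3.89. The first 3 places and the last did not overlap with their neighbours, while Pdia4 and Xbp1, Herpud1 and Dnajb9, Dnajb9 and Manf, and Manf and Creld2 overlapped in range. In the 3 hippocampus libraries Calr (median 149), Hspa5 (71.5) and Hsp90b1 (36.9) again led. Sdf2l1 (10.6 to 23.9) there lay above Manf (5.44 to 9.14) without overlap, and in the 6 neuron controls it lay below it.

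**Figure D2:**
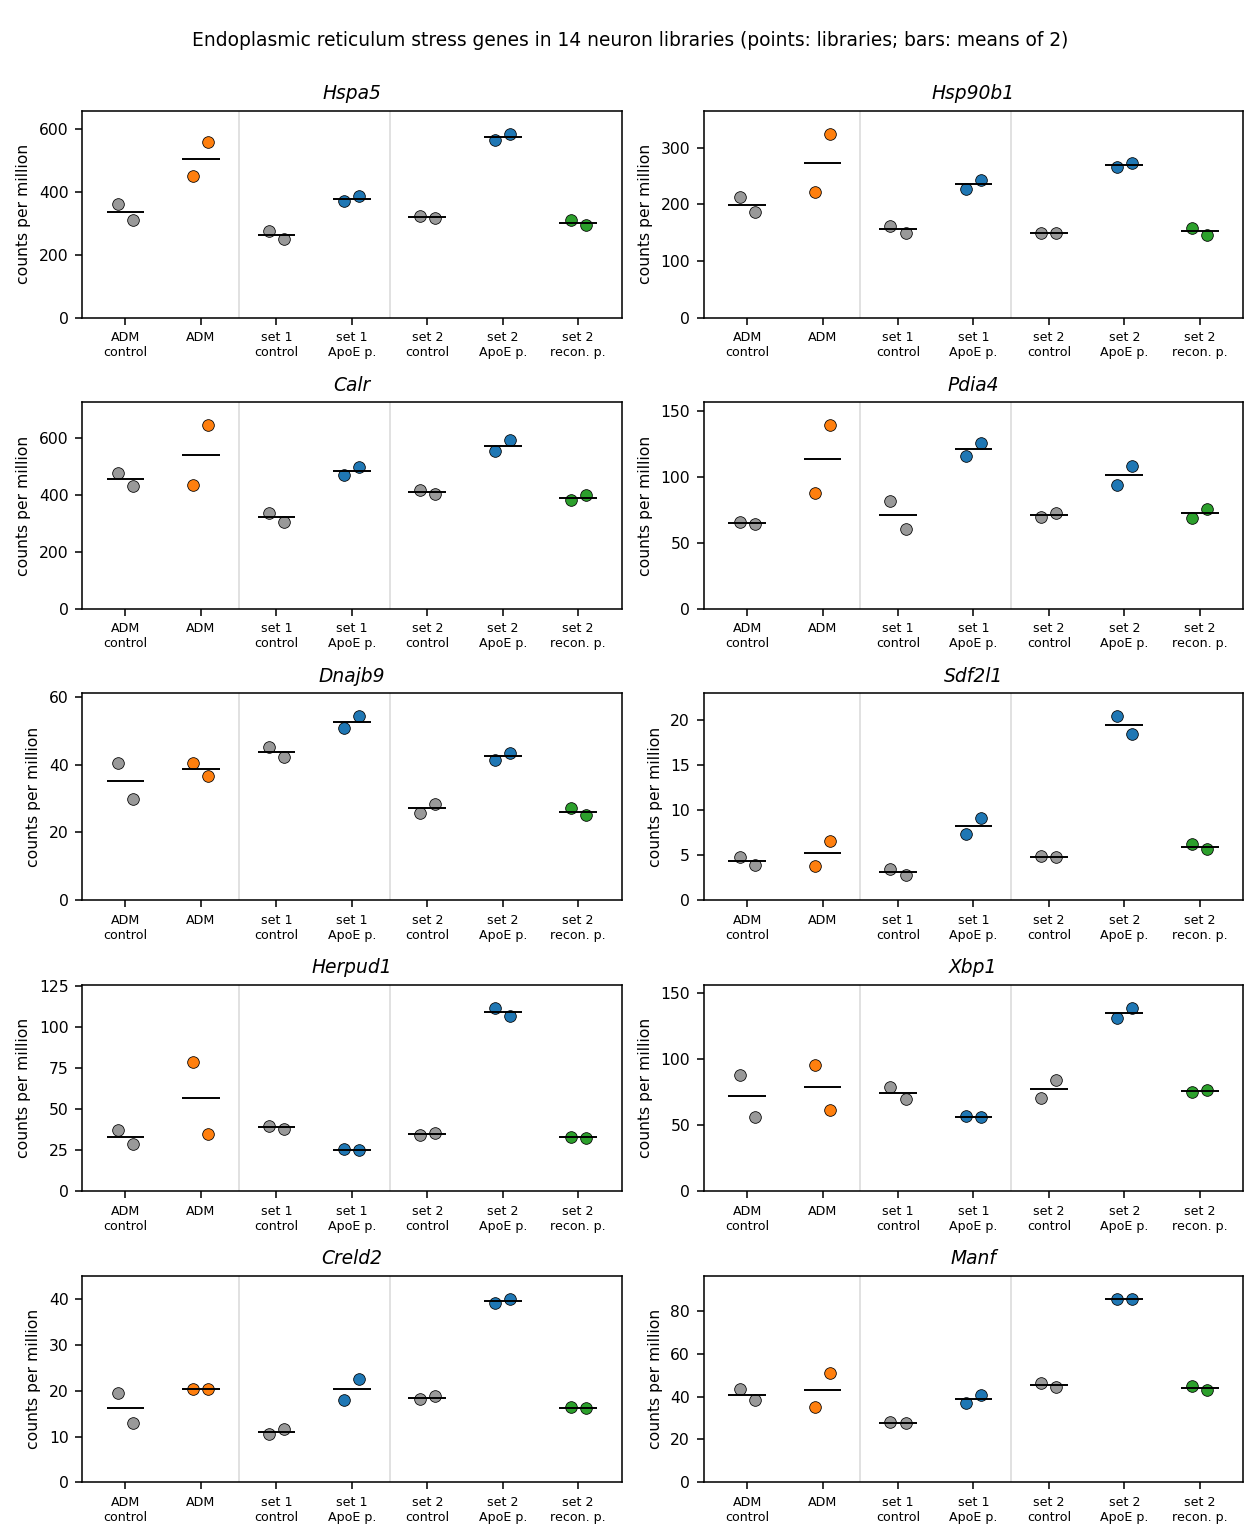
CPM of each gene in the 14 neuron libraries, from 0 on a linear axis that differs between genes; points are libraries, bars the mean of 2, grey controls, orange ADM, blue ApoE particle and green reconstituted particle. The 2 set 2 ApoE particle libraries lie above the set 2 controls for all 10 genes, while for Herpud1 and Xbp1 the 2 set 1 ApoE particle libraries lie below their controls. Groups were also without overlap for 65 of 77 further pathway genes in set 2 and 58 of 76 in set 1. The share over all genes was not counted.

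ApoE particle treatment in set 2 raised all 10 genes. Sdf2l1, a lumenal partner of Hsp40 chaperones, rose 4.02-fold and Herpud1, a membrane scaffold of ER-associated degradation, 3.12-fold. Creld2 rose 2.13-fold, Manf 1.87-fold, Hsp90b1 1.80-fold, Hspa5 1.79-fold, Xbp1 1.74-fold, Dnajb9 1.56-fold, Pdia4 1.42-fold and Calr 1.39-fold. Of all 16388 genes tested, 22.1% changed and 10% rose, and the median log2 fold change was 0.85 over the 10 genes and 0.00 over all genes tested. The summed level of the 10 genes was 1160 and 1161 CPM in the 2 controls and 1910 and 1992 CPM with the ApoE particle.

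Among the chaperones, Hspa5 stood at 322 and 317 CPM in the set 2 controls and 564 and 584 CPM with the ApoE particle. The log2 fold change was 0.84 ± 0.04 (SE; 2 libraries a group; edgeR quasi-likelihood test, adjusted p = 2.48e-13). Both treated libraries were above both controls by far more than the replicates differed. In what follows, the values in parentheses after the levels are log2 fold changes ± SE from the same fit. Hsp90b1, which folds secreted and cell-surface proteins downstream of Hspa5, went from 149 and 150.0 to 266 and 274 CPM, a log2 change of 0.85 ± 0.05 (adjusted p = 1.06e-11). The most abundant member moved least on the log2 scale: Calr had 418 and 405 CPM in controls and 556 and 593 CPM with the particle (0.48 ± 0.04; adjusted p = 1.06e-08). Pdia4, which forms and reshuffles disulfide bonds, had 69.5 and 72.7 CPM and then 94.1 and 109 CPM (0.51 ± 0.07; adjusted p = 1.14e-05). Dnajb9 hands misfolded proteins to Hspa5 and holds IRE1 in check, and it went from 25.8 and 28.5 to 41.5 and 43.5 CPM (0.64 ± 0.09; adjusted p = 1.84e-05). For all 6 chaperones and co-chaperones the 2 groups did not overlap. The same held for 65 of 77 further pathway genes, described below, and the share over all genes was not counted. Sdf2l1 was the rarest member, at 4.90 and 4.75 CPM in controls, and reached 20.5 and 18.4 CPM (2.01 ± 0.16; adjusted p = 1.73e-09).

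Herpud1, which brings misfolded proteins to the ubiquitin ligase for export and breakdown, had 34.5 and 35.3 CPM in the set 2 controls and 112 and 107 CPM with the ApoE particle. The log2 change of 1.64 ± 0.07 carried the lowest adjusted p of the 10 (adjusted p = 1.48e-14). Xbp1, the transcription factor downstream of IRE1, went from 70.9 and 84.1 to 131 and 139 CPM (0.80 ± 0.07; adjusted p = 1.89e-08), in total mRNA of either splice form. Both controls of each gene lay below both treated libraries, and 65 of 77 further pathway genes had no overlap either. Creld2, a resident ER protein with disulfide isomerase activity, rose from 18.3 and 18.8 to 39.2 and 40.1 CPM (1.09 ± 0.10; adjusted p = 1.30e-08). Manf, a neurotrophic factor that is held in the ER by Hspa5 and secreted under stress, rose from 46.4 and 44.5 to 85.5 and 85.3 CPM (0.91 ± 0.07; adjusted p = 8.16e-10). In the same libraries 6 of 8 astrocyte markers fell and 1 rose (948 to 1048 against 1398 to 1497 CPM in sum). Of 8 proliferation markers 7 fell (114 to 126 against 165 to 205 CPM). Of 7 vessel and fibroblast markers that were tested 4 fell (40.8 to 73.4 against 118 to 192 CPM). Some neuronal markers fell too. These were 3 of 8 pan-neuronal markers (5895 to 6026 against 6336 to 6367 CPM), 2 of 8 excitatory markers and 4 of 7 tested inhibitory markers. Of the inhibitory markers 1 rose. The part of these shifts in the result was not tested. Microglia markers were at or near 0 in set 2: their sum did not exceed 1.10 CPM in any library, over the 6 of 8 that have a value in the control and ApoE particle libraries, and C1qa, C1qb and C1qc were at 0 in both ApoE particle libraries.

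With the ApoE reconstituted particle, tested beside the ApoE particle, no change of the 10 genes passed the test. None passed in edgeR against the control (adjusted p = 0.9995 for each), 0 were at an unadjusted p under 0.05, and 0 passed in DESeq2. Of all 16388 genes tested 0% were called by edgeR and 0 by DESeq2, with 776 at an unadjusted p under 0.05. The median log2 difference was -0.04 over the 10 genes and 0.00 over all genes. Hspa5 had 309 and 296 CPM with the reconstituted particle, Hsp90b1 159 and 147 CPM, Calr 381 and 401 CPM, Pdia4 69.4 and 76.2 CPM and Dnajb9 27.1 and 25.0 CPM. Herpud1 had 33.2 and 32.6 CPM, Xbp1 75.5 and 76.4 CPM, Creld2 16.4 and 16.1 CPM and Manf 44.8 and 42.9 CPM. For 5 of the 10 these values overlapped with the controls, and of the others only Sdf2l1 lay above them. Of 77 further pathway genes, described below, 20 did not overlap. The share over all genes was not counted, so no result is read from the lack of overlap. The 95% interval of the log2 difference from control was -0.15 to 0.02 for Hspa5, -0.23 to 0.10 for Herpud1 and -0.17 to 0.14 for Xbp1, so changes of the size seen with the ApoE particle lie outside these intervals. The widest interval was that of Sdf2l1, -0.06 to 0.70, at 6.19 and 5.70 CPM, both libraries above both controls. The 8 other intervals, without those of Sdf2l1 and Creld2 (-0.39 to 0.06), stayed between -0.25 and 0.20. Of the 8 astrocyte, 8 proliferation and 8 pan-neuronal markers 0 were called with the reconstituted particle. This follows from the 0% called over all genes and does not show that cell types stayed alike.

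Set against the ApoE particle directly, all 10 genes were lower with the reconstituted particle. In that comparison 20.3% of genes were called, 11.4% were higher and 8.88% lower, and the median log2 difference was -0.86 over the 10 genes and 0.00 over all genes. Herpud1 differed by -1.71 ± 0.07 on the log2 scale (adjusted p = 9.27e-15), Sdf2l1 by -1.69 ± 0.16, Creld2 by -1.26 ± 0.10, Manf by -0.94 ± 0.07 and Hspa5 by -0.91 ± 0.04. Xbp1 differed by -0.81 ± 0.07, Hsp90b1 by -0.80 ± 0.05, Dnajb9 by -0.69 ± 0.10, Calr by -0.54 ± 0.04 and Pdia4, the smallest, by -0.46 ± 0.07 (adjusted p = 4.77e-05). This comparison and that of the ApoE particle with the control share the 2 ApoE particle libraries. The labels name the 2 particles and describe neither their composition nor their dose, so whether doses match is not known here.

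In set 1 the ApoE particle raised 7 of the 10 genes and lowered 2. Sdf2l1 rose 2.45-fold, Creld2 1.70-fold, Pdia4 1.59-fold, Calr 1.41-fold, Hsp90b1 1.40-fold, Hspa5 1.34-fold and Manf 1.30-fold. Herpud1 fell to 0.603 and Xbp1 to 0.709 of the control level, and Dnajb9 did not pass the test. Of 16475 genes tested 36.4% changed, 18.9% rose and 17.5% fell, so a large part of all genes moved in this experiment, and the median log2 change was 0.46 over the 10 genes and -0.01 over all genes. The summed level was 1065 and 956 CPM in controls and 1380 and 1461 CPM with the particle. With library totals in place of TMM scaling the median of all genes shifted by 0.10 on the log2 scale and the share of calls that rose went from 52.0% to 65.6%, while the directions and calls of the 10 genes stayed as given.

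**Figure D3:**
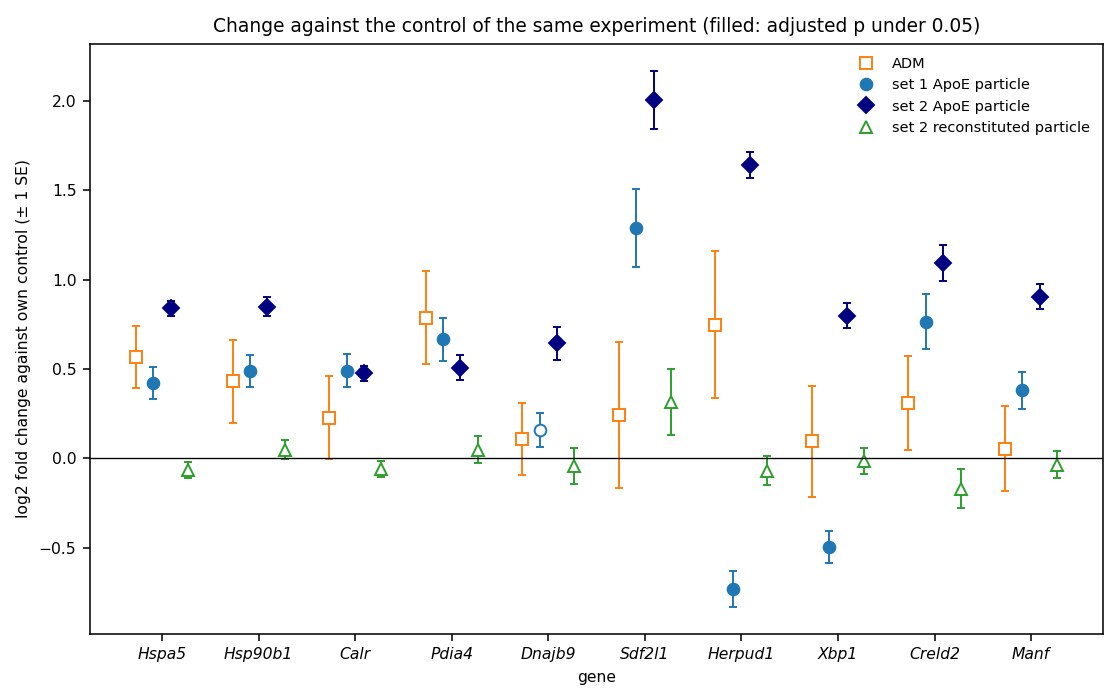
Log2 fold change of each gene against the control of its own experiment (± 1 SE, 2 libraries a group), with filled symbols for adjusted p under 0.05. The set 2 ApoE particle (diamonds) lies above 0 for all 10 genes, set 1 (circles) lies below 0 for Herpud1 and Xbp1, and reconstituted particle and ADM have no filled symbol.

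Sdf2l1 went from 3.48 and 2.83 CPM in the set 1 controls to 7.41 and 9.11 CPM, a log2 change of 1.29 ± 0.22 (adjusted p = 0.000860). Creld2 went from 10.6 and 11.6 to 18.0 and 22.6 CPM (0.77 ± 0.15; adjusted p = 0.00256). Pdia4 went from 81.6 and 61.0 to 116 and 126 CPM (0.67 ± 0.12; adjusted p = 0.00113). For these 3 genes the lower treated library was above the higher control. Hsp90b1 had 162 and 149.8 CPM in controls and 227 and 244 CPM with the particle (0.49 ± 0.09; adjusted p = 0.00128). Calr had 338 and 304 CPM without and 471 and 498 CPM with the particle (0.49 ± 0.09; adjusted p = 0.00154). For Hspa5 the controls had 276 and 249 CPM and the treated libraries 370.2 and 386 CPM (0.42 ± 0.09; adjusted p = 0.00354). The treated libraries of all 3 large chaperones again lay clear of the controls. In set 1 58 of 76 further pathway genes, described below, had no overlap either, and the share over all genes was not counted. Without particle replicate 2, Hspa5 no longer passed (adjusted p = 0.0812; 8.59e-09 to 0.0812 over its 9 alternatives). Manf, at 28.1 and 27.5 CPM in controls and 37.2 and 40.5 CPM with the particle (0.38 ± 0.10; adjusted p = 0.0124), was lost without particle replicate 1 (adjusted p = 0.0623) and without replicate 2 (adjusted p = 0.222; 0.00154 to 0.222 over its 9 alternatives).

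Herpud1 fell from 40.0 and 37.8 CPM in the set 1 controls to 25.5 and 24.8 CPM with the particle (-0.73 ± 0.10; adjusted p = 0.000234). Xbp1 fell from 78.9 and 69.6 to 56.7 and 56.4 CPM (-0.50 ± 0.09; adjusted p = 0.00140). In both genes the groups did not overlap, as in 58 of 76 further pathway genes, and the share over all genes was not counted. In both the direction was opposite to that of set 2. Dnajb9, at 45.2 and 42.3 CPM in controls and 50.7 and 54.2 CPM with the particle, changed by 0.16 ± 0.09 with a 95% interval of -0.04 to 0.36 (adjusted p = 0.211). Cell type markers moved with the particle in set 1. Of 8 microglia markers 8 rose (260 to 262 against 60.9 to 77.6 CPM in sum), of 8 proliferation markers 8 rose (514 to 613 against 126 to 148 CPM), of 8 astrocyte markers 7 rose and 1 fell (4150 to 4269 against 2668 to 2953 CPM), and of 7 vessel and fibroblast markers that were tested 5 rose and 1 fell (292 to 321 against 64.8 to 85.5 CPM), with Cldn5 at 0 in all 4 libraries. Of 8 pan-neuronal markers 7 fell (4952 to 5121 against 6608 to 6802 CPM). The part of these shifts in the members' changes was not tested.

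The difference between the particle's effects in set 2 and set 1 was tested in 1 fit of both experiments, each against its own control. For 6 of the 10 genes the log2 change was called higher in set 2 than in set 1. Of 17098 genes 31.1% were called in either direction, 14.7% higher in set 2 and 16.4% lower. The median difference was 0.42 over the 10 genes and 0.00 over all genes. The log2 change of Herpud1 was higher by 2.34 ± 0.11 (edgeR, adjusted p = 3.79e-09) and that of Xbp1 by 1.27 ± 0.13 (adjusted p = 3.45e-06), the pair whose direction turned. Manf differed by 0.50 ± 0.11 (adjusted p = 0.00354) and Hspa5 by 0.39 ± 0.09 (adjusted p = 0.00511). Those of Dnajb9 (0.46 ± 0.12; adjusted p = 0.0114) and Hsp90b1 (0.33 ± 0.09; adjusted p = 0.0149) depended on single libraries. Dnajb9 was lost without set 1 particle replicate 1 (adjusted p = 0.0580) or set 2 control replicate 1 (0.0702; 0.00285 to 0.0702 over its 13 alternatives). Hsp90b1 was lost under library totals (adjusted p = 0.0507) and without any of set 1 particle replicate 1 (0.0848), set 2 control replicate 1 (0.0723) or set 2 particle replicate 2 (0.0597; 0.000219 to 0.0848 over its 13 alternatives).

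The other 4 genes did not pass the test of the difference, which does not show that they responded alike. For Calr it was -0.04 ± 0.10 with a 95% interval of -0.25 to 0.16, and for Pdia4 -0.19 ± 0.16 (-0.52 to 0.15). For Creld2 it was 0.30 ± 0.18 (-0.08 to 0.67), and for Sdf2l1 0.69 ± 0.26 (adjusted p = 0.0624). Pdia4 passed, with the smaller effect in set 2, without set 1 control replicate 1 (-0.39; adjusted p = 0.00523; 0.00523 to 0.981 over its 13 alternatives), and Sdf2l1 passed without set 1 control replicate 2 (0.82; adjusted p = 0.0370; 0.0370 to 0.194 over its 13 alternatives).

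The rest of the pathway was read from 78 further genes in 5 lists, of which Srp54a matched 2 gene identifiers and was not used. In set 2, 41 of 77 tested genes rose with the ApoE particle and 4 fell, beside 10% and 12.1% of all genes, with a median log2 change of 0.25. In set 1, 17 of 76 rose and 6 fell, beside 18.9% and 17.5%, with a median of 0.12. The counts of single lists below are to be read beside the same shares of all genes. The set 1 count of 23 calls was 12 without particle replicate 2, 13 without particle replicate 1 and 38 without control replicate 1. With the reconstituted particle against its control 0 of 77 were called.

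Of the sensors, only Atf6 and Eif2ak3 passed, and only in set 2; the difference from set 1 passed for Eif2ak3 (0.46 ± 0.13; adjusted p = 0.0176) and not for Atf6 (0.26 ± 0.13; adjusted p = 0.143). In set 2, 3 of 9 rose and 2 fell: Atf6 by 0.47 ± 0.08 (adjusted p = 0.000169) and Eif2ak3 by 0.38 ± 0.09 (adjusted p = 0.00225) rose, while Mbtps1, a Golgi protease that cuts ATF6, and Creb3l2, a factor related to ATF6, fell by 0.28 and 0.46 on the log2 scale. Ern1 was at 0.15 ± 0.14 (adjusted p = 0.486). In set 1, 2 of 9 rose and 1 fell, beside 18.9% and 17.5% of all genes. These were Creb3l2 by 1.22 ± 0.15 and Creb3l1 by 0.76 ± 0.16 upward and the protease gene Mbtps2, which fell by 0.29. There Ern1 was at 0.41 ± 0.15 (adjusted p = 0.0556), Atf6 at 0.18 ± 0.10 (adjusted p = 0.161) and Eif2ak3 at -0.10 ± 0.11 (adjusted p = 0.520).

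Of 22 other chaperones and foldases, 11 rose and 0 fell in set 2, with a median of 0.31. Hyou1, an Hsp110-type partner of Hspa5, rose from 118 and 129 to 221 and 221 CPM (0.84 ± 0.06; adjusted p = 9.46e-11), and the disulfide isomerases Pdia3 and Pdia6 rose by 0.47 ± 0.04 and 0.51 ± 0.05. In set 1, 6 rose and 0 fell, with a median of 0.18. Dnajc3, a co-chaperone that also restrains PERK, rose from 59.8 and 57.1 to 116 and 126 CPM in set 1 (0.95 ± 0.09; adjusted p = 1.46e-05) and from 59.0 and 58.4 to 95.1 and 97.1 CPM in set 2 (0.71 ± 0.07; adjusted p = 1.37e-08). Txndc5 (0.74 ± 0.10), Dnajc1 (0.48 ± 0.12) and Pdia3 (0.40 ± 0.09) rose with it in set 1. The difference between the sets passed for Hyou1 (0.81 ± 0.10; adjusted p = 3.05e-05) and, in the other direction, for Txndc5 (-0.62 ± 0.12; adjusted p = 0.00143).

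ER-associated degradation, the pathway of Herpud1, had 10 of 17 genes rising and 1 falling in set 2, and 1 of 17 rising in set 1. Sel1l, the ligase's adaptor, rose by 0.28 ± 0.05, Selenos by 0.40 ± 0.09 and the lectin Os9 by 0.24 ± 0.06 in set 2, while Vcp, the ATPase that pulls substrates out of the membrane, fell by 0.20. Selenos alone was called in set 1 (0.40 ± 0.11; adjusted p = 0.0133). Of 18 translocon and transport genes 10 rose and 0 fell in set 2, among them the channel subunit Sec61b (0.48 ± 0.09) and the signal peptidase subunits Spcs2 (0.36 ± 0.07) and Spcs3 (0.46 ± 0.09). In set 1, 6 of 18 rose and 0 fell, led by Kdelr3 (1.54 ± 0.23; adjusted p = 0.000350), a receptor that returns ER proteins from the Golgi.

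Of the PERK branch genes, in set 2, 7 of 11 rose and 1 fell, with a median of 1.11. In set 1, 2 of 10 tested rose and 5 fell, with a median of -0.12. ATF4 and CHOP genes thus moved in the same direction as Herpud1 and Xbp1 in each experiment. Atf4 had 124 and 142 CPM in the set 2 controls and 334 and 316 CPM with the particle (1.28 ± 0.12; adjusted p = 0.000974). In set 1 it had 214 and 211 CPM and then 96.8 and 92.8 CPM (-1.27 ± 0.09; adjusted p = 3.04e-06). Neither experiment's groups overlapped, which held for 65 of 77 pathway genes in set 2 and 58 of 76 in set 1. Ddit3 went from 10.8 and 10.1 to 55.3 and 48.5 CPM in set 2 (2.31 ± 0.12; adjusted p = 1.49e-13) and from 19.2 and 13.0 to 11.2 and 9.99 CPM in set 1 (-0.70 ± 0.19; adjusted p = 0.0123). Chac1, a glutathione-degrading enzyme under ATF4, moved the same ways, by 2.86 ± 0.16 in set 2 and -1.90 ± 0.19 in set 1. Nfe2l2, the antioxidant regulator NRF2, and Atf3 rose in set 1, by 1.60 ± 0.11 and 1.33 ± 0.17. The difference between the sets was 2.52 ± 0.11 for Atf4 (adjusted p = 1.75e-09), 2.98 ± 0.23 for Ddit3 (adjusted p = 2.85e-07) and 4.73 ± 0.24 for Chac1 (adjusted p = 5.30e-09), and in the other direction -1.92 ± 0.18 for Nfe2l2 (adjusted p = 5.51e-06). In this list the log2 change was called higher in set 2 than in set 1 for 6 genes and lower for 2. Over all 5 lists it was higher for 20 of 77 genes and lower for 7, beside 14.7% and 16.4% of all genes. Higher is signed here and does not mean a larger response. How many genes were called depended on single libraries.

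**Figure D4:**
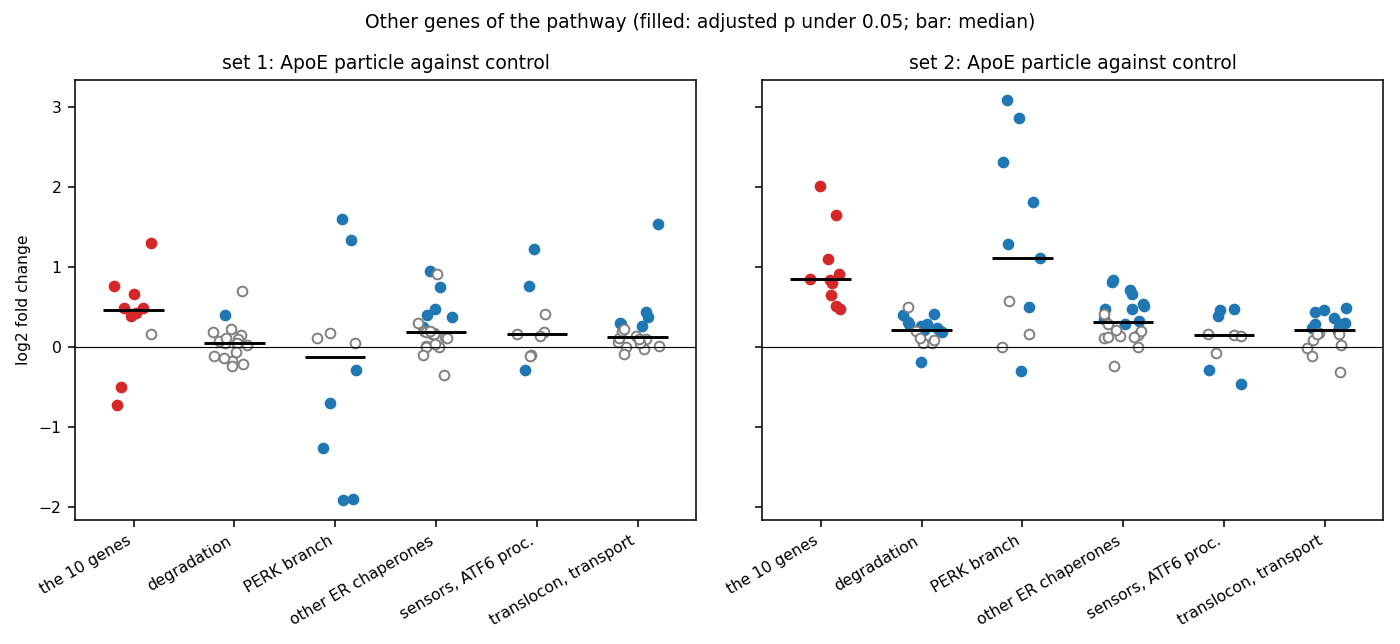
Log2 fold change with the ApoE particle for the 10 genes (red) and for the 5 lists of other pathway genes (blue) in set 1 (left) and set 2 (right); filled points passed at adjusted p under 0.05, open points did not, and bars are medians. The median of the PERK branch list is 1.11 in set 2 and -0.12 in set 1, and those of the other 4 lists lie between 0.05 and 0.31 in both.

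ADM treatment gave no call among the 10 genes. None passed in edgeR or in DESeq2, and 2 were at an unadjusted p under 0.05. On simulated counts the edgeR fit of this experiment recovered 0% of genes changed 2-fold, so a lack of calls does not show a lack of change. The median log2 change was 0.28 over the 10 genes and 0.02 over all genes. For 4 of the 10 the groups did not overlap, beside 51 of the 77 tested genes of the pathway lists. The share without overlap over all genes was not counted, so the 4 do not set the members apart. Of 16191 genes 0% were called by edgeR and 314 by DESeq2, with 1426 at an unadjusted p under 0.05. The 2 ADM libraries differed from each other, and not in the same direction for all members. Pdia4 had 65.8 and 64.6 CPM in controls and 88.3 and 139.6 CPM with ADM (0.79 ± 0.26; unadjusted p = 0.0318, adjusted p = 0.553). Hspa5 had 360.1 and 312 CPM in controls and 452 and 560.3 CPM with ADM (0.57 ± 0.17; unadjusted p = 0.0241, adjusted p = 0.547). In both genes the 2 ADM libraries were above the 2 controls. Herpud1 had 37.3 and 28.7 CPM in controls and 78.8 and 34.7 CPM with ADM, high in replicate 1 and between the controls in replicate 2 (0.75 ± 0.41; adjusted p = 0.637). Calr had 478 and 434 CPM in controls and 436 and 646 CPM with ADM, high in replicate 2 and overlapping the controls in replicate 1 (0.23 ± 0.23; adjusted p = 0.799). Hsp90b1 had 212 and 187 CPM in controls and 221 and 324 CPM with ADM (0.43 ± 0.23), and Creld2 19.5 and 13.0 and 20.4 and 20.5 CPM (0.31 ± 0.26). These 2 genes, with Pdia4 and Hspa5, are the 4 without overlap. Xbp1 (87.8 and 56.6 CPM in controls, 95.8 and 61.5 CPM with ADM) and Manf (43.4 and 38.4 and 35.2 and 50.9 CPM) lay higher in one ADM library and within or below the controls in the other. Dnajb9 (40.5 and 29.8 and 40.4 and 36.7 CPM) and Sdf2l1 (4.82 and 3.87 and 3.83 and 6.57 CPM) overlapped as well.

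Without ADM replicate 2, the library with 1176 CPM of vessel and fibroblast markers, 0 of the 10 were called, Herpud1 was at 1.20 ± 0.21 (adjusted p = 0.0938), Pdia4 at 0.38 ± 0.17 and Hspa5 at 0.37 ± 0.17 (adjusted p = 0.737 for both). Without ADM replicate 1, Pdia4 passed at 1.08 ± 0.17 (adjusted p = 0.0223; 0.0223 to 0.99996 over its 9 alternatives), Hspa5 was at 0.72 ± 0.17 (adjusted p = 0.0664) and Herpud1 at 0.06 ± 0.24 (adjusted p = 0.918). Like Herpud1, Atf4 and Ddit3 were high in ADM replicate 1 and between the controls in replicate 2. Atf4 had 257 and 148 CPM with ADM and 152 and 134 CPM in controls, and Ddit3 had 39.9 and 14.8 CPM with ADM and 15.2 and 10.7 CPM in controls. Of 77 pathway genes 0 were called with ADM by edgeR and 7 by DESeq2, with a median of 0.29, and of 1.12 over the 11 PERK branch genes. The ADM effect minus the set 1 ApoE particle effect was called for 0 of the 10 genes and 0% of 17292 genes by edgeR (1768 at an unadjusted p under 0.05, 197 genes called by DESeq2). 1 of the 10 was at an unadjusted p under 0.05, Herpud1, whose effects differed by 1.44 ± 0.48 (adjusted p = 0.392) and passed without ADM replicate 2 (1.90; adjusted p = 0.00537; 0.00537 to 0.99993 over its 13 alternatives).

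Over the 14 neuron libraries, centred within each experiment, the mean log2 CPM of the 10 genes was followed most closely, among genes other than the 10 themselves, by Pdia6 (Pearson r 0.972), Cnpy3 (0.968), Emd (0.963), Dnajb11 (0.954) and Rcc2 (0.953), ranked among 9535 genes with at least 10 CPM on average in each experiment. Pdia6, a disulfide isomerase, and Dnajb11, an Hsp40 co-chaperone of Hspa5, were on the list of other chaperones, and Cnpy3 is an ER co-chaperone of Toll-like receptors. Emd encodes emerin of the nuclear envelope and Rcc2 a regulator of chromosome condensation. The members followed their own mean unevenly. Among those ranked, r was lowest for Xbp1 (0.634), Herpud1 (0.711) and Pdia4 (0.762) and highest for Hspa5 (0.971). The 14 points fall into treated and untreated groups that share experiments, so r describes these libraries and has no p.

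In hippocampus all 10 genes were higher in the control shRNA library with FC than in the one without, and 7 of 10 were past 1.5-fold (6 with TMM-scaled CPM, where Hspa5 at 0.58 did not reach it). Of 12510 genes with at least 100 counts, 16.7% were past 1.5-fold, 12.3% higher and 4.46% lower. The median log2 ratio was 0.66 over the 10 genes and 0.03 over all genes. The summed level of the 10 was 1028 CPM without FC, 1513 CPM with FC and 1127 CPM with FC and ApoE shRNA. With 1 library per group there is no replicate check and no test: the values compare 3 libraries, and the 95% intervals (exact binomial) cover counting error only. Sdf2l1 had 11.7 CPM without FC, 26.5 CPM with FC and 12.3 CPM with FC and ApoE shRNA. Its log2 ratio with against without FC was 1.17 (0.94 to 1.42), and that of ApoE against control shRNA, both with FC, was -1.10 (-1.34 to -0.87). It was the member with the largest ratio in both comparisons, as it was in the 2 ApoE particle experiments.

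In the same order of libraries and ratios, Hspa5 had 263, 405 and 302 CPM, with log2 ratios of 0.62 (0.57 to 0.67) and -0.42 (-0.47 to -0.37). Hsp90b1 had 149, 208 and 131 CPM, with ratios of 0.48 (0.41 to 0.55) and -0.67 (-0.74 to -0.60). Pdia4 had 40.7, 73.3 and 47.5 CPM, with ratios of 0.85 (0.72 to 0.98) and -0.63 (-0.75 to -0.50). In each of these the library with FC and control shRNA was the highest of the 3. Calr, at 371, 496 and 429 CPM, had the smallest ratios of the 10, 0.42 (0.37 to 0.47) and -0.21 (-0.25 to -0.17), and the second became -0.14 with TMM-scaled CPM. Dnajb9 had 31.4, 46.7 and 25.6 CPM (0.57 (0.42 to 0.73) and -0.87 (-1.03 to -0.70)). Dnajb9 and Hsp90b1 were the 2 genes whose interval lay below 0 when the ApoE shRNA library was set against the library without FC.

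Herpud1, of ER-associated degradation, had 44.4, 70.9 and 55.8 CPM, with ratios of 0.68 (0.55 to 0.80) and -0.35 (-0.47 to -0.23). Xbp1 had 80.4, 125 and 83.5 CPM, with ratios of 0.64 (0.55 to 0.74) and -0.59 (-0.68 to -0.49). Both genes were highest in the same library as the chaperones. Creld2 had 17.5, 29.2 and 16.5 CPM, with ratios of 0.74 (0.54 to 0.95) and -0.82 (-1.03 to -0.62). Manf had 19.2, 32.2 and 23.3 CPM, with ratios of 0.75 (0.56 to 0.95) and -0.47 (-0.65 to -0.29).

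The ApoE shRNA library with FC was lower than the control shRNA library with FC for all 10 genes, 6 of them past 1.5-fold (4 with TMM-scaled CPM, where Pdia4 at -0.56 and Xbp1 at -0.52 did not reach it), with a median log2 ratio of -0.61. In that comparison 22.3% of 12474 genes were past 1.5-fold, 4.46% higher and 17.9% lower, with a median of -0.02. Against the library without FC, 0 of 10 were past 1.5-fold (7.24% of 11980 genes were, 1.14% higher and 6.09% lower), with ratios from -0.30 to 0.33 and a median of 0.14. These 3 comparisons share libraries, so the rise and the drop both rest on the control shRNA library with FC. That library also held 1464 CPM of microglia markers in sum, against 296 without FC and 226 with ApoE shRNA. Astrocyte markers were 7218 CPM there against 5212 and 3988, and excitatory neuron markers 5267 CPM against 6738 and 7304. The part of these shifts in the members' values was not tested. Of the other pathway genes, 8 of 72 were past 1.5-fold higher with FC and 0 lower (median 0.23), a share near the 12.3% of all genes, and 5 of the 8 were of the PERK branch list. With ApoE against control shRNA, both with FC, 13 of 72 were past 1.5-fold lower and 0 higher (median -0.25), beside 17.9% of all genes lower.

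**Figure D5:**
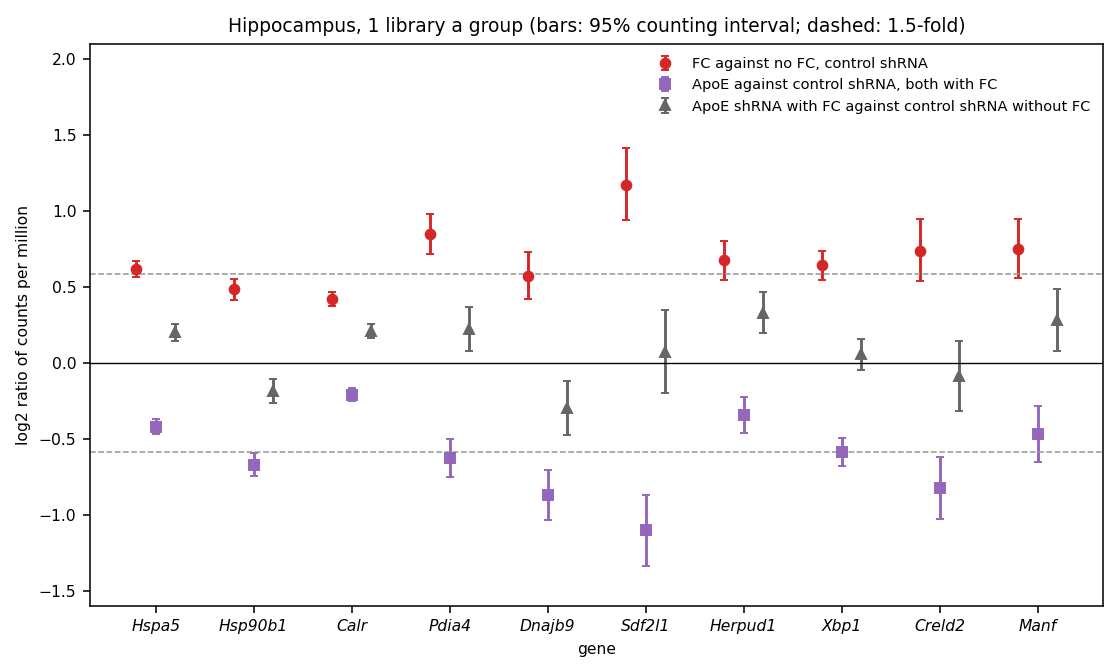
Log2 ratio of CPM between hippocampus libraries, 1 per group, with exact 95% counting intervals; dashed lines mark 1.5-fold. With FC against without FC (circles) all 10 genes lie above 0, ApoE against control shRNA with FC (squares) all 10 lie below 0, and the third comparison (triangles) stays within 1.5-fold.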

How the data were processed

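Raw counts per gene were deposited in 4 tables, 1 per neuron experiment and 1 for hippocampus, with all 17 libraries as separate columns. Per the labels' protocols, total RNA was extracted with Trizol and libraries were made with a NEBNext Ultra RNA kit. The submitters' processing notes name HTSeq 0.6.0, HISAT2 2.1.0 and Bowtie2 2.2.3 with the build mm10. The strand setting and other options were not given in the sources used here. Set 2 lists 1489 genes with no value in the control and ApoE particle libraries, and these were dropped.

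Counts were tested over all genes with edgeR 4.0.16 (R 4.3.3; limma 3.58.1): filterByExpr, TMM scaling, robust quasi-likelihood fit with group means, quasi-likelihood test and Benjamini-Hochberg adjustment over all genes tested, with a call at adjusted p under 0.05. Set 2 was fitted with its 3 groups together, and differences between experiments were interaction contrasts on joined tables. Hippocampus ratios used a prior of 0.5 counts, and genes needed 100 counts in the higher library. CPM is the count over the library total, so it can differ slightly from the scaled fold changes. Where 1 library was left out, the lone library of a group was assumed to vary like the other groups. Alternatives were DESeq2 1.42.0 (Wald test), its size factors, library totals, no filter, a replicate block, and each library left out. On simulated counts with 200 genes changed 2-fold, 92.5% were recovered in set 1 (16475 genes), 90.5% in set 2 (16388), 80% for their difference (17098) and 0% for ADM (16191).

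The 10 genes, the pathway lists and the cell type markers were chosen with earlier results of these data known. All 10 are named in each comparison. From each pathway list at most 4 called genes with the lowest adjusted p are named per comparison, plus Ern1, Eif2ak3, Atf6, Atf4 and Ddit3, and the 5 genes of most similar pattern. Promoter sequences came from RefSeq and exon overlaps from GENCODE M21.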

Additional observations from a re-analysis of the deposited data

Results flagged for a closer look

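6 of the 10 genes are listed because the ApoE particle effect differed between set 2 and set 1 by a test of the difference itself (edgeR, each experiment against its own control, 2 libraries a group, adjusted over 17098 genes). Of all genes tested 31.1% were called, 14.7% with a higher log2 change in set 2 than in set 1. The effect on Herpud1 differed by 2.34 on the log2 scale (adjusted p = 3.79e-09), with a rise in set 2 and a drop in set 1. Xbp1 differed by 1.27 (adjusted p = 3.45e-06), again with opposite directions. The other 4 rose in set 2 and were higher or not called in set 1: Manf differed by 0.50 (adjusted p = 0.00354), Dnajb9 by 0.46 (adjusted p = 0.0114), Hspa5 by 0.39 (adjusted p = 0.00511) and Hsp90b1 by 0.33 (adjusted p = 0.0149). The calls of Dnajb9 and Hsp90b1 depended on single libraries, and that of Hsp90b1 was also lost under library totals. The 2 experiments also differed in their untreated cultures, with Apoe at 1569 and 1099.7 CPM in the set 1 controls and 688 and 657 CPM in the set 2 controls. Summed microglia markers were 60.9 to 77.6 CPM in the set 1 controls and 0.684 to 1.10 CPM in those of set 2. The part of these differences in the responses was not tested.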

How the results depend on the processing

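Of 70 tested results (10 genes in 7 neuron comparisons), 35 were called. For these, 194 of 195 values under other scalings, tests, filters or the block kept direction and call, as did 196 of 204 values without 1 library; the 9 others are given with the results. The replicate numbers are shared across groups, but no label ties them to a culture: same-numbered libraries deviated together by a correlation of 0.47 in the ADM experiment, 0.03 in set 1 and -0.09, -0.04 and 0.03 in set 2. With a replicate block, 465 genes were called with ADM in place of 0, 502 for ADM minus set 1 in place of 0 (1 of the 10 genes, Herpud1, at 1.34, adjusted p = 0.0402; 0.00537 to 0.99993 over its alternatives) and 1 for the reconstituted particle in place of 0. No other call of the 10 genes changed under the block. For ADM, DESeq2 called 314 genes and the fit without a filter 128. For ADM minus set 1, DESeq2 called 197, the fit without a filter 62 and DESeq2 size factors 1. For the reconstituted particle, the fit without a filter called 8 and that of only 2 groups 4. The ApoE shRNA library against that without FC had 1 of the 10 past the smaller fold tried, in place of 0.

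Without 1 library, calls ranged from 0 to 641 for ADM (641 without ADM replicate 1, 47 without ADM replicate 2), 0 to 555 for ADM minus set 1 (377 and 555 without the same 2), 3521 to 7610 for set 1 (lowest without particle replicate 2), 2296 to 3836 for set 2 (lowest without control replicate 1), 3491 to 6244 for their difference (lowest without set 1 particle replicate 2) and 1 to 4 for the reconstituted particle. Of the 10 genes, 0 to 1 were called for ADM and 0 to 1 for ADM minus set 1. Uncalled values that changed sign without 1 library ranged, for ADM, from -0.12 to 0.49 (Calr), -0.10 to 0.33 (Dnajb9), -0.27 to 0.30 (Manf), -0.24 to 0.58 (Sdf2l1) and -0.24 to 0.43 (Xbp1). For ADM minus set 1 they were -0.29 to 0.15 (Dnajb9), -0.43 to 0.17 (Hsp90b1), -0.081 to 0.27 (Hspa5) and -0.31 to 0.39 (Pdia4). For set 2 minus set 1 they were -0.10 to 0.025 (Calr) and -0.39 to 0.0045 (Pdia4). For the reconstituted particle against control they were -0.12 to 0.037 (Dnajb9), -0.013 to 0.11 (Hsp90b1), -0.069 to 0.0018 (Manf), -0.013 to 0.11 (Pdia4) and -0.14 to 0.12 (Xbp1). Apart from fewer samples, the cause of these changes was not tested. With 2 libraries a group small changes stay within the intervals given, and Sdf2l1, the rarest of the 10, had the widest ones in all neuron comparisons but ADM against control and ADM minus set 1, where those of Herpud1 were wider.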
